A study of Eucalyptus camaldulensis with 12 samples.

Results

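The 5 transcripts described here, of 43180 in the deposited count table, are leaf transcripts of the river red gum Eucalyptus camaldulensis whose levels lay at an extreme under water stress and which the study's tables of the most strongly differing transcripts list without a named homolog: Eucgr.I02392, CUFF.9597, Eucgr.F00644, Eucgr.F03917 and CUFF.12241. They were chosen from their read counts in watered against stressed seedlings, so those levels are described without a test. The label was checked against the study's Arabidopsis matches. Eucgr.I02392, Eucgr.F00644, Eucgr.F03917 and CUFF.12241 had no match at an E value of 1e-05 or below, whereas CUFF.9597 did match an Arabidopsis protein, one of unknown function. For Eucgr.I02392 the study does print an Arabidopsis identifier, beside the label no-hit. For Eucgr.F00644 the study's table of allelic expression does carry a name, GA requiring 3, from a match above that limit. In Arabidopsis this is ent-kaurene oxidase, an enzyme of gibberellin synthesis. A transcript whose identifier starts with CUFF came from the assembly of the mapped reads and carries no gene model name.

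Seedlings of 3 populations, Katherine (dry tropics), Mt Isa (semi-arid tropics) and Petford (humid tropics), were grown in pots in a glasshouse, and leaf RNA was sequenced in 12 libraries. The groups C0 and C1 are 5 seedlings per population before treatment and after 2 months of watering to field capacity, and S0 and S1 are 10 other seedlings per population before treatment and after 2 months at 30% of field capacity. From C0 to C1, as from S0 to S1, the seedlings also grew 2 months older and the date changed. A change from C0 to C1 is thus one over time in watered seedlings, not an effect of watering alone. Each group has 3 libraries, 1 per population. A library is a bulk of the seedlings of a population, so variation between seedlings is not seen and the spread in a group is that between populations.

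An open reading frame or transcript with no recognisable relative outside its lineage is often called an orphan. Orphan transcripts can be young or fast-evolving protein genes, non-coding RNAs, or pieces of longer genes such as untranslated ends that a protein search cannot place. In plants they are frequent among transcripts that respond to the environment, and most have no assigned role. Water stress in leaves induces protective hydrophilic proteins, among them the dehydrins, and slows growth, with less transcription of genes for cell division, cell expansion and photosynthesis.

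Library totals ran from 1726793 counts (S0) to 6951584 counts (S1). For Mt Isa, the source descriptions of the C1 and of the S0 library go against the title and sample group of each. The sample group was followed, and values without these libraries are given after those of the 5 transcripts. Of 7 genes listed as leaf mesophyll markers 6 were found, and their summed level was 29953 to 76919 CPM (reads per 1000000 counts of the library) before treatment. It was 10053 to 17892 CPM in the C1 libraries and 3937 to 5621 CPM in those of S1. The Mt Isa C1 library, at 11059 CPM, thus lay among those of C1 and the Mt Isa S0 library, at 29953 CPM, above them all, as their titles and sample groups have it. CESA7 (Eucgr.H00189), a cellulose synthase of the secondary walls of xylem, lay at 0.929 to 6.66 CPM in C1 and at 249 to 285 in S1. PDF1 (Eucgr.A01963), a gene of the epidermis, lay at 6.96 to 196 CPM in C1 and at 0 in all S1 libraries. In bulk leaf RNA, fewer cells of a type and less RNA per cell cannot be told apart, and the part of these marker shifts in the results that follow was not tested.

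The 5 transcripts lie on 4 scaffolds of the draft genome of E. grandis, with coordinates as deposited, and none overlaps another assembled transcript. Eucgr.I02392 spans 593 bases of scaffold 9, positions 34559308 to 34559900, and CUFF.9597 spans 3539 bases of scaffold 11, positions 35675877 to 35679415. Eucgr.F00644 spans 1577 bases of scaffold 6, positions 8550913 to 8552489, and Eucgr.F03917 spans 640 bases of the same scaffold, positions 47507428 to 47508067. CUFF.12241 spans 2105 bases of scaffold 2, positions 10627815 to 10629919. The sources used here give no exons, untranslated regions or strand for these transcripts. Eucgr.I02392 and CUFF.9597 form a set read almost only under stress. Eucgr.F00644 was lower in watered seedlings after 2 months than before, and higher after 2 months of stress. Eucgr.F03917 and CUFF.12241 form a set that was higher in watered seedlings after 2 months and nearly unread under stress.

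Eucgr.I02392 was read 4005 times in the Katherine, 1377 times in the Mt Isa and 7991 times in the Petford library of S1. In the other 9 libraries it had 4 reads in all: 1 in Mt Isa C0, 2 in Petford C0 and 1 in Mt Isa C1. The S1 libraries therefore stood far above every other library, with no overlap. Scaled to library size, the S1 levels were 822, 531 and 1225 CPM, a mean of 859 ± 349 (SD, n = 3). Per kilobase of span this was 1449 CPM, the 27th highest of the 43180 transcripts in S1. The ratio of pooled CPM between S1 and C1 was 8176, with an exact counting interval of 1467 to 322940 that reflects the single C1 read. Without the Mt Isa C1 library, which held that read, the log2 ratio was a lower bound of 10.99. Against S0, where no read was found in 10887060 counts, S1 was at least 2883-fold higher, taking 3 reads as the floor for a whole group. That bound, 11.49 on the log2 scale, was 10.43 without the Petford S0 library, the deepest of the 3. Leaving out the Katherine or the Petford C1 library gave log2 ratios of S1 to C1 of 12.35 and 12.29, below that of all libraries.

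CUFF.9597 had no read in any of the 6 libraries taken before treatment, 0 of 18035002 counts, which allows up to 0.166 CPM. After treatment it had 1 read in Katherine C1 and none in the other C1 libraries, against 1757, 709 and 1477 reads in the Katherine, Mt Isa and Petford libraries of S1. The S1 levels of 361, 273 and 227 CPM had a mean of 287 ± 68.0 (SD, n = 3), or 81.0 CPM per kilobase of span. The pooled ratio of S1 to C1 was 2411, with a counting interval of 432 to 95235. Leaving out the Katherine C1 library turned the log2 ratio of 11.24 into a lower bound of 9.0, and without Petford C1 it was 10.53. Against S0 the transcript was at least 850-fold higher in S1, a log2 bound of 9.73 that was 8.67 without the Petford S0 library. The order of the populations in S1 was not that of Eucgr.I02392: Katherine held the highest level of CUFF.9597 and Petford the lowest, while Petford held the highest level of Eucgr.I02392 and Mt Isa the lowest. The reads of Eucgr.I02392 per read of CUFF.9597 were 2.28 (counting interval 2.15 to 2.41) in Katherine, 1.94 (1.77 to 2.13) in Mt Isa and 5.41 (5.12 to 5.72) in Petford. Each population has 1 S1 library, so the spread between libraries of a population is not known.

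Eucgr.F00644 was already present before treatment, at 30.7, 39.6 and 48.6 CPM in the Katherine, Mt Isa and Petford libraries of C0 and at 36.2, 35.3 and 62.5 CPM in those of S0. After 2 months of watering the same populations held 0.646, 5.11 and 3.03 CPM, from 2, 11 and 10 reads. After 2 months of stress they held 957, 993 and 1569 CPM, from 4666, 2578 and 10230 reads. Every C1 library thus lay below and every S1 library above all 6 libraries from before treatment, an arrangement shared by 0.83% of the 43146 transcripts with at least 10 reads. The S1 mean of 1173 ± 343 CPM (SD, n = 3) was 744 CPM per kilobase, the 63rd highest in S1. The pooled level was 14.7-fold lower in C1 than in C0 (counting interval 9.61 to 23.6) and 25.1-fold higher in S1 than in S0 (22.9 to 27.6). The log2 difference of S1 from S0 was nearly the same in the 3 populations, 4.72 in Katherine, 4.80 in Mt Isa and 4.65 in Petford, with an SD of 0.08. The log2 change from C0 to C1 was more spread, -5.26, -2.90 and -3.94, with an SD of 1.19, and rested on few C1 reads. The 464-fold difference between S1 and C1 (counting interval 309 to 733) was therefore made up of differences in opposite directions from similar levels before treatment.

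Eucgr.F03917 ran the other way. Before treatment it lay at 27.7, 26.4 and 30.7 CPM in the Katherine, Mt Isa and Petford libraries of C0 and at 12.1, 30.7 and 18.4 CPM in those of S0. In C1 it reached 261, 231 and 155 CPM, from 807, 498 and 511 reads, and in S1 a single read remained, in the Petford library. The C1 mean of 216 ± 54.7 CPM (SD, n = 3) was 337 CPM per kilobase of span, the 90th highest of all transcripts in C1. From C0 to C1 the pooled level was 7.61-fold higher (counting interval 6.56 to 8.87). From S0 to S1 it was 266-fold lower, with a wide interval of 47.1 to 10566, and S1 was 2970-fold lower than C1 (532 to 117392). Without the Petford S1 library, which held the only read, the log2 ratio of S1 to C1 changed from -11.54 to a bound of -9.05, and that of S1 to S0 from -8.06 to a bound of -5.56. Without Katherine S1 they were -10.92 and -7.44.

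CUFF.12241 had the same order of groups at a lower level. Its C0 libraries held 3.59, 4.19 and 4.23 CPM and its S0 libraries 3.11, 3.42 and 3.6 CPM in Katherine, Mt Isa and Petford, from 6 to 17 reads each. The C1 libraries held 80, 139 and 144 reads, or 25.8, 64.5 and 43.6 CPM, and no read was found in 14419733 counts of S1, which allows up to 0.208 CPM. The pooled level was 10.5-fold higher in C1 than in C0 (counting interval 7.17 to 16.1), at least 16-fold lower in S1 than in S0 and at least 198-fold lower in S1 than in C1. For Eucgr.F03917 and CUFF.12241 alike, every C1 library lay above and every S1 library below those 6, which held for 2.02% of transcripts. These 2 transcripts had the same group order as PDF1, whose C1 levels were more uneven.

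The libraries with conflicting labels moved these ratios little, apart from the C1 read of Eucgr.I02392 given above. Without Mt Isa C1 the log2 ratio of S1 to C1 was 10.82 for CUFF.9597, 9.38 for Eucgr.F00644, -11.49 for Eucgr.F03917 and a bound of -7.35 for CUFF.12241. The log2 ratio of C1 to C0 was then -4.40, 2.88 and 3.12 for the last 3 of these. Without Mt Isa S0 the log2 ratio of S1 to S0 was 4.55 for Eucgr.F00644 and -7.82 for Eucgr.F03917, with bounds of 11.18 for Eucgr.I02392 and 9.42 for CUFF.9597 and the bound for CUFF.12241 the same to 2 decimals. Every ratio kept its direction.

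**Figure D1:**
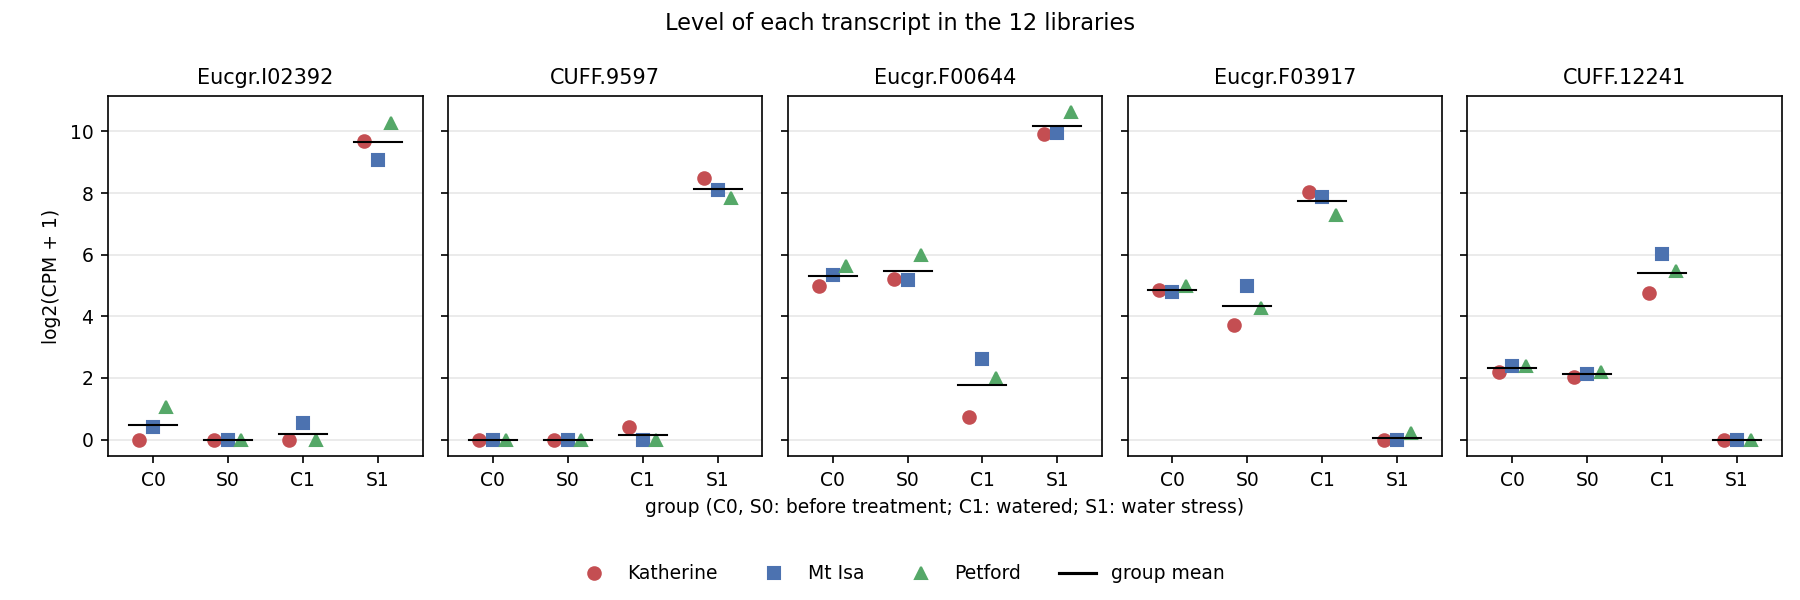
Level of each transcript as log2(CPM + 1) in the 12 libraries, by group, with a symbol for each population and a bar at the group mean. Eucgr.I02392 and CUFF.9597 lie above 1.06 CPM only in S1, Eucgr.F00644 is lowest in C1 and highest in S1, and Eucgr.F03917 and CUFF.12241 are highest in C1 and at 0 or a single read in S1.

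The 5 transcripts were listed for C1 against S1 and not for C0 against S0, so seedlings later watered and seedlings later stressed were compared by a test, although earlier results of all 12 libraries were known when the transcripts were taken up. In edgeR's quasi-likelihood test none of the 3 transcripts with enough reads was called at an adjusted p under 0.01, beside 0.191% of the 36048 transcripts tested, and none had an unadjusted p under 0.05. DESeq2 and edgeR's exact test also called 0 of 3. The log2 difference of S0 from C0 was 0.18 (SE 0.25, adjusted p = 0.97) for Eucgr.F00644, -0.51 (SE 0.30, adjusted p = 0.871) for Eucgr.F03917 and -0.25 (SE 0.47, adjusted p = 0.982) for CUFF.12241. The sign for Eucgr.F00644 turned to -0.16 without the Petford S0 library. Eucgr.I02392 (3 reads in C0, 0 in S0) and CUFF.9597 (0 reads) had too few reads before treatment for a test.

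The populations were compared for all 5 transcripts in an edgeR fit over 12 libraries that also held the group. None was called, beside 1.18% of the 43146 transcripts tested, although 3 of the 5 had an unadjusted p under 0.05, and DESeq2 called 0 with 1 such p. The lowest adjusted p was that of Eucgr.F00644 (0.0805), which was 0.77 higher on the log2 scale in Petford than in Katherine. Eucgr.I02392 had an adjusted p of 0.131, CUFF.12241 of 0.399, CUFF.9597 of 0.485 and Eucgr.F03917 of 0.79. With 4 libraries per population, 1 in each group, the transcripts that were read in a single group rest here on 1 informative library per population. The fit also includes the C1 and S1 libraries that served to choose the transcripts, with populations as replicates. That choice favours transcripts on which the populations agree, so no conclusion is drawn from the absence of calls.

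The transcripts' levels over the 12 libraries followed each other by set. Pearson's r of log2(CPM + 1) was 0.99 between Eucgr.I02392 and CUFF.9597 and 0.95 between Eucgr.F03917 and CUFF.12241, and it was -0.98 between Eucgr.F00644 and Eucgr.F03917. These values describe points that share libraries and groups. The transcripts were chosen for extreme levels in C1 against S1, and the sets were formed from these same levels. High r within a set therefore follows from the choice, and nothing is read from it. Among all transcripts, 83 had at most 4 reads in the 9 other libraries, the count of Eucgr.I02392, and at least 100 reads in S1. Within these 83, chosen by limits set after the values were seen, Eucgr.I02392 (13373 S1 reads) and CUFF.9597 (3943) had the most reads. They were followed by the overlapping transcripts of Eucgr.K01402, whose Arabidopsis match of unknown function is above the E value limit, and by Eucgr.F04203, an ERF110 (ethylene response transcription factor) homolog with 2582 S1 reads. Likewise 54 transcripts had at most 1 read in S1 and at least 100 in C1. By C1 reads Eucgr.F03917 (1816) was the second of these, between LAC14 (Eucgr.F02646, 1880), a laccase, and EXPA1 (Eucgr.I01954, 1811), an expansin that loosens the cell wall, and CUFF.12241 (363) was the 12th.

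For each transcript the 5 most similar of 29081 were found by the same correlation over 12 libraries. Eucgr.I02392 was most similar to 3 unnamed transcripts, to the aquaporin BETA-TIP (Eucgr.L03254) and to a second ERF110 homolog (Eucgr.F02691), with r of 0.997 each. The last of these, with 671 reads all in S1, was also the most similar to CUFF.9597 (r = 0.998), followed by CUFF.40553. BETA-TIP had 162 reads, again all in S1. The neighbours in pattern of Eucgr.F00644 were Eucgr.K03041 (r = 0.988), the tetraspanin TET3 (Eucgr.B02462, 0.985), the kinase CIPK25 (Eucgr.J03116, 0.983), which in Arabidopsis belongs to the kinases bound by calcineurin B-like calcium sensors, a haloacid dehalogenase-like hydrolase (Eucgr.G03124) and a SAUR-like auxin-responsive protein (Eucgr.E01473). CIPK25 had 573 reads in the C0 libraries, 339 in C1, 1034 in S0 and 4172 in S1, so that it shared the direction of the changes of Eucgr.F00644 but with a smaller range. Eucgr.F03917 was closest to Eucgr.C02885 (r = 0.994), which has domains of unknown function, and its list also held CSLC12 (Eucgr.F02219, 0.988), of the glucan synthase family of xyloglucan. CUFF.12241 was closest to SCPL11 (Eucgr.G01192, r = 0.98), a serine carboxypeptidase-like protein, to a 3-dehydroquinate synthase (Eucgr.J02467, 0.98) and to DHS2 (Eucgr.I00519, 0.979). The latter pair catalyse the opening steps of the shikimate pathway to aromatic amino acids, and DHS2 had 539 reads in C0, 11092 in C1, 1015 in S0 and 256 in S1. With a pseudocount of 0.25 CPM none of the 5 of CUFF.12241 remained among its closest 5, and 2 of Eucgr.F03917, 3 of CUFF.9597 and 4 each of Eucgr.F00644 and Eucgr.I02392 did.

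In all, 56 other transcripts lay within 50 kb of the 5, none overlapping them: 10 around Eucgr.I02392, 13 around CUFF.9597, 15 around Eucgr.F00644, 12 around Eucgr.F03917 and 6 around CUFF.12241. Because they were taken by position alone, all comparisons could be tested on them with edgeR's quasi-likelihood test. Between C1 and S1, 16 of 51 tested (31.4%) were called, 7 higher and 9 lower in S1, beside 22.3% of all transcripts tested. Of these, 3 are pieces of the gene Eucgr.F00650, and with that gene counted once 14 of 49 (28.6%) were called, 7 in each direction. Eucgr.K02747 and a transcript that overlaps it, both called higher, were still counted apart, as were other overlapping transcripts. The median log2 change of the 51 was 0.07, against -0.04 over all transcripts. Without the Mt Isa C1 library 13 of 50 were called. From S0 to S1, 16 of 53 (30.2%) were called, 7 higher and 9 lower, beside 19.2% of all, or 14 of 51 with Eucgr.F00650 once. The count of 16 was 9 without the Mt Isa S1 (of 48 tested), the Petford S1 (of 47) or the Petford S0 library (of 49). It was 10 without the Katherine S1 library (of 47) and 12 without Mt Isa S0 (of 50). Over all transcripts the calls also fell in these runs, from 7722 to between 5498 and 6691. The neighbours called in both comparisons were 12, each in the same direction in both, which share the S1 libraries. From C0 to C1, 3 of 49 (6.12%) were called beside 6.25% of all, and 7 of 49 beside 11.8% with population as a block. The change from S0 to S1 differed from that from C0 to C1 for 9 of 56 (16.1%), 3 higher and 6 lower, beside 10.7% of all (7 of 54 with Eucgr.F00650 once), and for 5 without the Mt Isa C0 library. No neighbour was called between C0 and S0 (0 of 48, with 4 at an unadjusted p under 0.05, and 0 by DESeq2), beside 0.191% of all. None was called among populations (0 of 56, with 5, and 0 by DESeq2), beside 1.18% of all. With shares over all transcripts as small as these, nothing is read from the absence of calls.

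**Figure D2:**
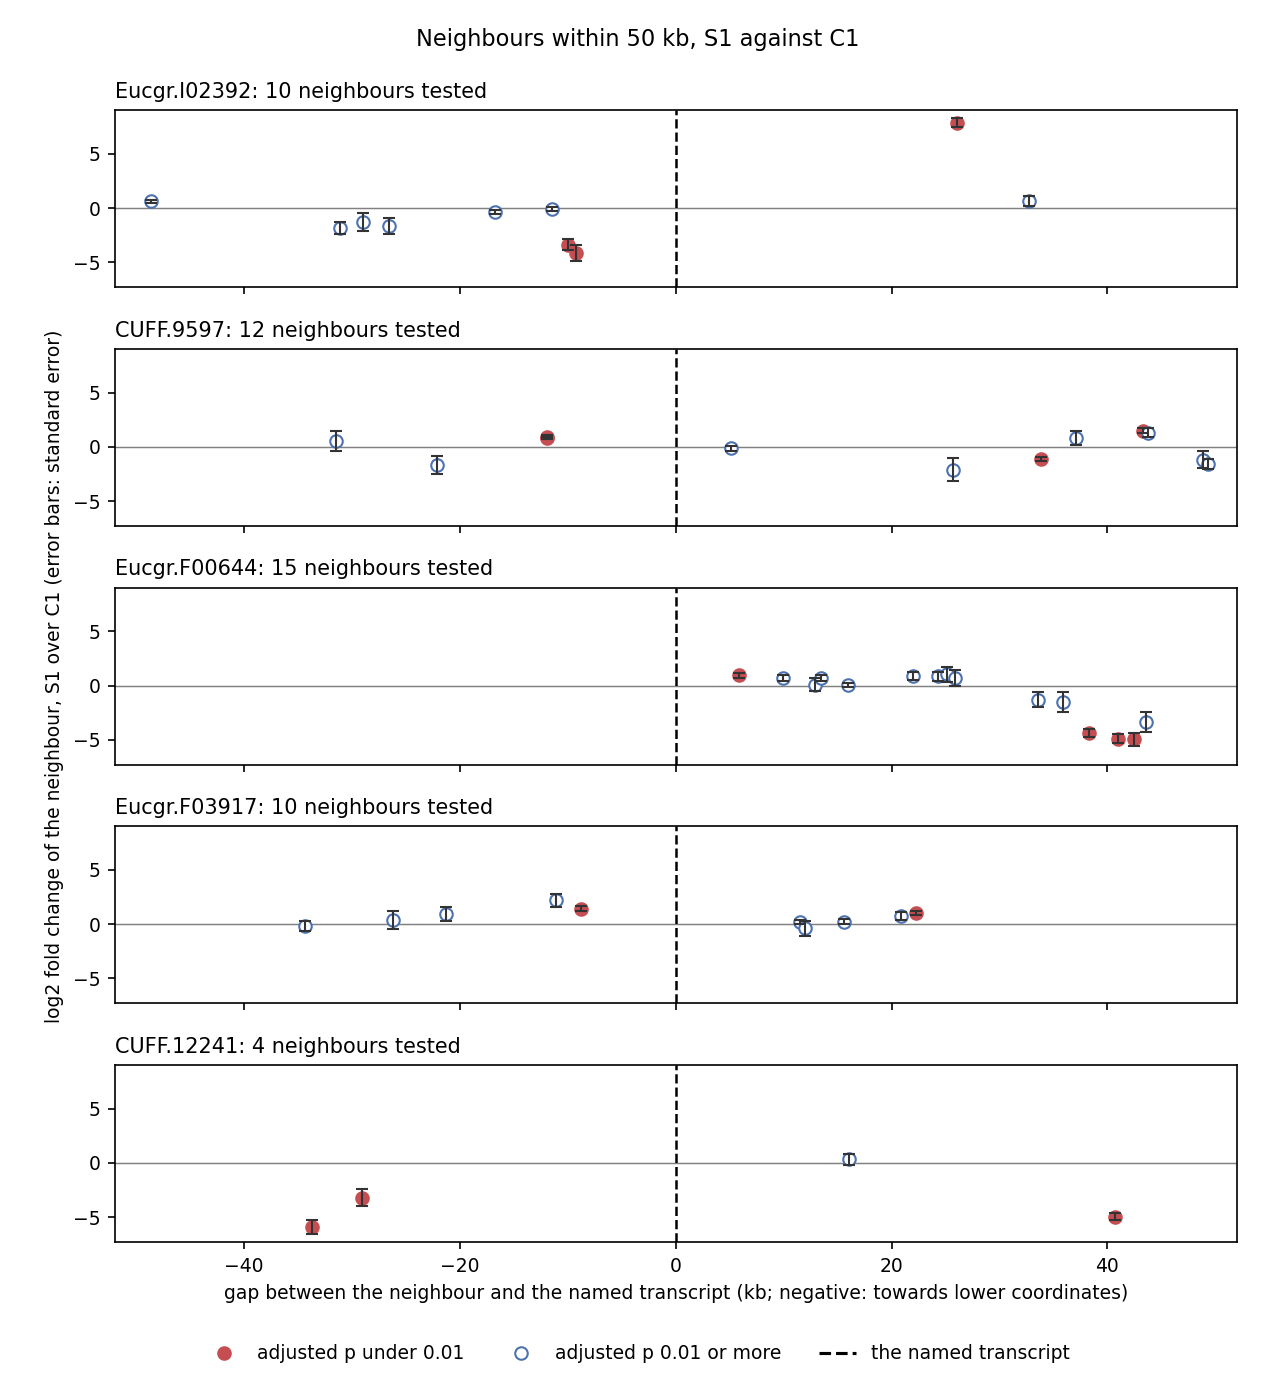
Log2 fold change (S1 over C1, with standard error) of the tested neighbours against their gap in kilobases to each of the 5 transcripts, which lie at 0; filled points have an adjusted p under 0.01. Neighbours moved in both directions, from 7.89 (Eucgr.I02395, beside Eucgr.I02392) to -5.91 (Eucgr.B00865, beside CUFF.12241), with the 3 pieces of Eucgr.F00650 beside Eucgr.F00644 at -4.34, -4.89 and -4.94.

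The nearest transcript above Eucgr.I02392, at a gap of 26.1 kb, was Eucgr.I02395 (scaffold 9, positions 34585993 to 34587700). The study's tables name it a dehydrin of the late embryogenesis abundant class, from a match above the E value limit. Dehydrins are hydrophilic proteins that gather in drying plant cells and seeds. Its levels were 27.7 to 31.2 CPM in C0, 38.1 to 42.1 in S0 and 32 to 58.4 in C1, and 11365, 7557 and 15080 CPM in the Katherine, Mt Isa and Petford libraries of S1. Like Eucgr.I02392 it was highest in Petford and lowest in Mt Isa, but unlike it, it was read in every library. The log2 change was 7.89 between C1 and S1 (SE 0.38, adjusted p = 3.54e-07, edgeR) and 8.10 from S0 to S1 (SE 0.32, adjusted p = 1.7e-07). Per kilobase of span its S1 mean of 6636 CPM was the highest of all transcripts. Of the reads of both transcripts together, Eucgr.I02392 took 6.74% (95% exact interval 6.54 to 6.95) in Katherine, 6.56% (6.23 to 6.90) in Mt Isa and 7.52% (7.36 to 7.68) in Petford in S1. Before treatment it took 3 of 581 reads, 0.516% (0.107 to 1.5), and in C1 1 of 393, 0.254% (0.00644 to 1.41). Its share was thus similar in the 3 S1 libraries, highest in Petford, and lower before treatment and in C1. Intervals cover counting error only.

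**Figure D3:**
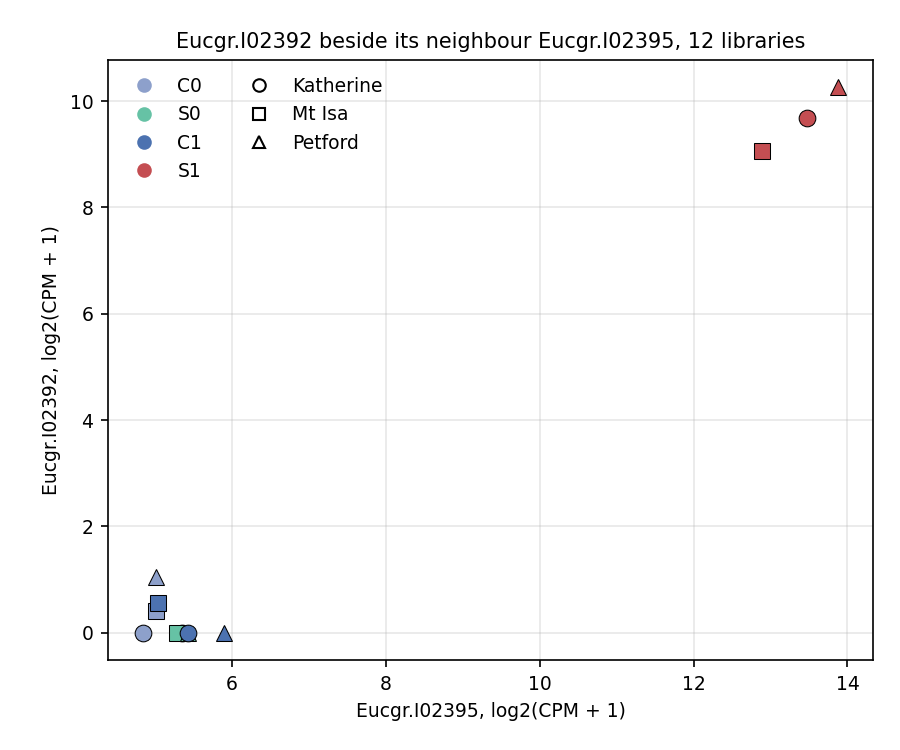
Level of Eucgr.I02392 against that of its neighbour Eucgr.I02395, both as log2(CPM + 1), in the 12 libraries, coloured by group with a symbol for each population. The 9 libraries other than S1 lie together at the lower left, where the neighbour has 27.7 to 58.4 CPM and Eucgr.I02392 at most 1.06, and the 3 S1 libraries lie at the upper right in the order Mt Isa, Katherine, Petford.

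On the lower side of Eucgr.I02392 the 2 nearest transcripts changed in the opposite direction. No other transcript on that side was called between C1 and S1. The farthest, at a gap of 48.6 kb, had a log2 change of 0.62 there (adjusted p = 0.0139, edgeR). From S0 to S1 it rose by 0.88 (adjusted p = 0.00666, edgeR). The unnamed transcript at a gap of 9.2 kb (positions 34549564 to 34550067) was read 7, 20 and 16 times in the C1 libraries and 1, 1 and 2 times in those of S1, a log2 change of -4.17 (SE 0.73, adjusted p = 0.00118, edgeR). The next one, at a gap of 10.0 kb (positions 34548122 to 34549350), was read 32, 36 and 42 times in C1 and 1, 5 and 13 times in S1, a log2 change of -3.36 (SE 0.53, adjusted p = 0.000621). From S0 to S1 the former was not called (-1.73, SE 1.02, adjusted p = 0.232), and the latter fell by 2.58 (SE 0.59, adjusted p = 0.00585), a call lost on leaving out any 1 of the 6 libraries (adjusted p = 0.0109 to 0.0211). Between C1 and S1, Eucgr.I02392 thus lay between 2 transcripts that fell and 1 that rose.

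Eucgr.F00644 had no neighbour within 50 kb on its lower side. Its nearest on the other, an unnamed transcript at 5.9 kb (scaffold 6, positions 8558398 to 8561280), was read 57, 31 and 75 times in C1 and 197, 89 and 259 times in S1. Its log2 change of 0.93 (SE 0.20, adjusted p = 0.00482, edgeR) was no longer called without the Katherine C1, Mt Isa C1, Katherine S1 or Petford S1 library (adjusted p = 0.0192 to 0.0221). From S0 to S1 the same transcript was 1.47 higher on the log2 scale (SE 0.22, adjusted p = 0.000361). Farther out, Eucgr.F00650 was assembled in 3 pieces at gaps of 38.3, 41.0 and 42.5 kb. It is a homolog of MAP65-1, a protein that bundles microtubules in Arabidopsis. The piece with the most reads was counted 219, 156 and 181 times in C1 and 6, 12 and 31 times in S1. The pieces fell between C1 and S1, with log2 changes of -4.34 (SE 0.36, adjusted p = 7.76e-06), -4.89 (SE 0.40, adjusted p = 7e-06) and -4.94 (SE 0.59, adjusted p = 8.48e-05). They are parts of a single gene, opposite in direction to Eucgr.F00644.

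Around CUFF.9597 the neighbours called between C1 and S1 changed by 0.86 to 1.49 in size on the log2 scale. The nearest, at 5.1 kb (scaffold 11, positions 35684543 to 35688113), had a C1 mean of 28.1 ± 6.73 CPM and an S1 mean of 27.3 ± 0.836 (SD, n = 3). Its log2 change of -0.15 (SE 0.20, adjusted p = 0.611, edgeR) had no stable sign. On the other side, at 11.9 kb, lay Eucgr.K02747, a protein kinase family member, read 350, 253 and 450 times in C1 and 1188, 625 and 1532 times in S1, and a transcript that overlaps it and may share its reads. They rose by 0.86 (SE 0.16, adjusted p = 0.00165) and 0.93 (SE 0.16, adjusted p = 0.00111) on the log2 scale. The call for Eucgr.K02747 was lost without the Katherine C1 (adjusted p = 0.0108) or the Mt Isa C1 library (0.0102). NDPK2 (Eucgr.K02753), a nucleoside diphosphate kinase that balances nucleoside triphosphates, fell by 1.15 (SE 0.18, adjusted p = 0.000601), with C1 counts of 181, 130 and 222 and S1 counts of 130, 71 and 233. An unnamed transcript at 43.3 kb (positions 35722699 to 35725452) rose by 1.49 between C1 and S1 (SE 0.25, adjusted p = 0.00101). Its means were 28.2 ± 10.9 CPM in C0, 66.2 ± 37.3 in S0, 11.6 ± 2.88 in C1 and 34.7 ± 6.79 in S1 (SD, n = 3). From S0 to S1 its log2 change was thus negative and not called, at -1.01 (SE 0.36, adjusted p = 0.0532), and from C0 to C1 it was -1.35 (SE 0.30, adjusted p = 0.0109). Of the 13 neighbours of CUFF.9597, 4 were called from S0 to S1, 2 higher and 2 lower. The largest of these changes was -3.73 (SE 0.89, adjusted p = 0.00764, edgeR), for an unnamed transcript at 25.7 kb. It was read 15, 3 and 9 times in S0 and 2, 0 and 1 times in S1.

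Beside Eucgr.F03917 no tested neighbour was called lower. The nearest, at 8.8 kb (scaffold 6, positions 47496543 to 47498612), was read 54, 43 and 40 times in C1 and 230, 144 and 262 times in S1, and rose by 1.43 on the log2 scale (SE 0.23, adjusted p = 0.0007, edgeR). The nearest on the higher side, at 11.5 kb, had a log2 change of 0.23 (SE 0.19, adjusted p = 0.396). A transcript at 22.3 kb (positions 47530341 to 47532146) rose by 1.04 (SE 0.19, adjusted p = 0.00143). Both called neighbours thus rose where Eucgr.F03917 itself was down to a single read in S1.

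Around CUFF.12241, 3 of 4 tested neighbours were called lower in S1 than in C1, beside 12.5% of all transcripts called lower. MYB3 (Eucgr.B00865), at a gap of 33.7 kb, is a homolog of an Arabidopsis transcription factor of the MYB family. Before treatment its counts in Katherine, Mt Isa and Petford were 2, 2 and 1 (C0) and 0, 0 and 5 (S0). Afterwards they were 28, 25 and 28 in the C1 libraries and 0, 0 and 2 in those of S1. This is the order of groups of CUFF.12241 itself, but S0 and S1 had too few reads for a test between them. MYB3 rose by 3.63 on the log2 scale from C0 to C1 (SE 0.50, adjusted p = 0.00042, edgeR) and fell by 5.91 between C1 and S1 (SE 0.64, adjusted p = 4.54e-05). The difference of its 2 changes over time was not called (-5.29, SE 1.38, adjusted p = 0.0113, edgeR). The nearest transcript on that side, at 29.1 kb, had no read before treatment, C1 counts of 6, 7 and 9 and S1 counts of 1, 0 and 3. Its log2 change of -3.22 (SE 0.77, adjusted p = 0.00788) was lost on leaving out any 1 of the 6 libraries (adjusted p = 0.0132 to 0.0308), with DESeq2 (0.0118) and in the fit of all 12 libraries (0.0174). Eucgr.B00868, at 40.7 kb, matches an Arabidopsis protein of unknown function and held 155 ± 29.7 CPM in C1 and 5.13 ± 2.81 in S1 (SD, n = 3), a log2 change of -4.95 (SE 0.34, adjusted p = 2.08e-06). From C0 to C1 it changed by 0.11 (SE 0.17, adjusted p = 0.785), where CUFF.12241 was 10.5-fold higher. The nearest transcript on the higher side, at 16.1 kb, did not follow. It fell by 2.58 from C0 to C1 (SE 0.47, adjusted p = 0.0027, a call lost without the Katherine C0 or Mt Isa C0 library, adjusted p = 0.0151 and 0.03) and by 2.59 from S0 to S1 (SE 0.25, adjusted p = 1.57e-05), and its log2 difference between C1 and S1 was 0.32 (SE 0.53, adjusted p = 0.683).

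The study's table of the transcripts that differed most between C1 and S1 holds 10 further identifiers with no match or a match of unknown function, and for each the transcript with the most reads among those without a named match was taken. Unnamed transcripts that the study lists only for positive selection were not used here. In 6 of them every S1 library lay above every C1 library and in 4 every S1 library lay below, beside 47.9% of all tested transcripts with no overlap between these groups, and nothing can be read from this since the choice fixed it. By their whole course 4 of them, Eucgr.A02982, Eucgr.A02983, Eucgr.K01402 and CUFF.38682, had every S1 library above the 6 from before treatment and C1 levels that overlapped these 6. Eucgr.C03715 shared the course of Eucgr.F00644, with every C1 library below and every S1 library above the 6 from before treatment, with group totals of 14 (C0), 67 (S0), 1 (C1) and 388 (S1) reads. Eucgr.B03602 and Eucgr.C02812, which match proteins of unknown function, shared that of Eucgr.F03917, though their changes from C0 to C1 were smaller, at 1.12 and 0.47 against 2.86 in mean log2(CPM + 1). Eucgr.F02915 and Eucgr.C01020 had every C1 library above the 6 and S1 levels that overlapped them, and CUFF.8283 had every C1 library below the 6 and S1 levels that overlapped them. The courses of Eucgr.F00644 and Eucgr.F03917 were held by 0.83% and 2.02% of all transcripts with at least 10 reads. For the other courses no such share was counted, and the choice favoured them, so nothing is read from their numbers. Of the 4 that stood out in S1 alone, Eucgr.K01402 had 3 reads before treatment, 0 in C1 and 3308 in S1, and Eucgr.A02982, Eucgr.A02983 and CUFF.38682 had S1 means of 426, 615 and 632 CPM beside C1 means of 1.55 to 5.04 CPM. By edgeR's quasi-likelihood test 0 of 8 tested list members were called between C0 and S0 (1 at an unadjusted p under 0.05). The share over all transcripts was 0.191%, too small for anything to be read from this. Among populations 0 of 10 were called (2 at an unadjusted p under 0.05), beside 1.18% of all. The population fit includes the libraries that served to choose the list, so no conclusion is drawn from it.

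**Figure D4:**
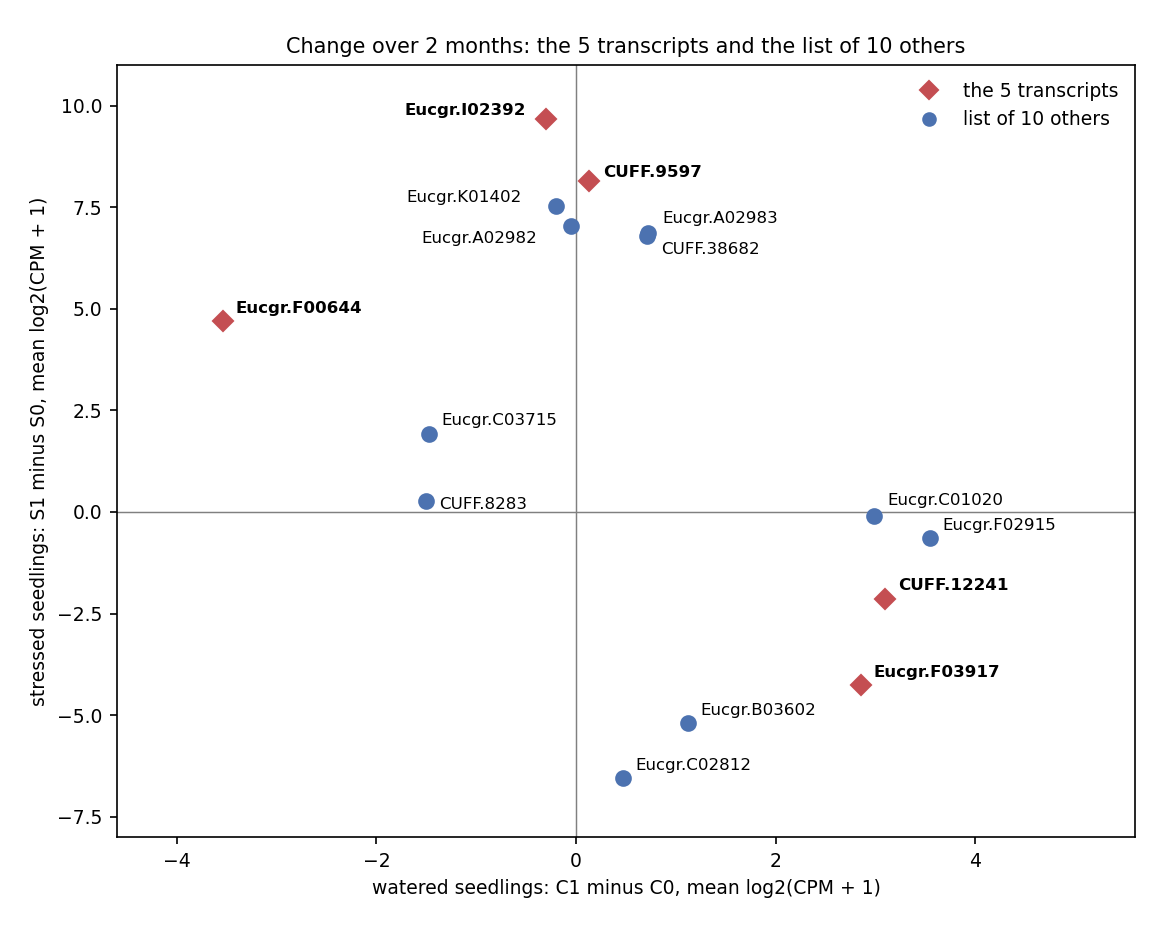
Change in mean log2(CPM + 1) from C0 to C1 in watered seedlings (x axis) and from S0 to S1 in stressed seedlings (y axis) for the 5 transcripts (diamonds) and the 10 others (circles). Eucgr.F00644 lies at -3.54 and 4.70, Eucgr.F03917 at 2.86 and -4.26 and CUFF.12241 at 3.10 and -2.13, in opposite quadrants, while Eucgr.I02392 and CUFF.9597 lie near 0 on the x axis and at 9.67 and 8.14 on the y axis.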

How the data were processed

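Leaf RNA of 12 seedling bulks was sequenced, from libraries that the study made with total RNA. The deposited values are whole-number counts of reads per assembled transcript, not normalized. The authors mapped the reads to the draft E. grandis genome (release not given in the sources used here) with TopHat and Bowtie, assembled the pooled reads with Cufflinks and counted reads with bedtools. Strand is not stated, so reads of overlapping transcripts on either strand cannot be told apart. Assembly of pooled reads without gene models can split a gene or end it early, and a span can include introns. Of 43425 deposited rows, 245 exact repeats were used once. Identifiers and Arabidopsis matches came from the study's supplementary tables by coordinates and covered 2406 transcripts.

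Groups followed the sample group label. Counts were tested with edgeR 4.0.16 (R 4.3.3, limma 3.58.1; quasi-likelihood F test, TMM), on transcripts with at least 10 reads over the libraries of the fit, with Benjamini-Hochberg adjustment over all and calls at an adjusted p under 0.01. CPM used TMM-scaled totals of 12 libraries. Ratios are of pooled CPM with 95% exact binomial intervals. A group at 0 was set to a floor of 3 reads. Similarity used log2(CPM + 1) of transcripts with at least 50 reads. Named are the 5 transcripts, the nearest neighbour on each side, up to 3 called neighbours with the largest change between C1 and S1, the 5 most similar transcripts and the list of 10; others named were chosen after their values were seen. The members and lists were chosen with earlier results of these data known. C0 and C1, and S0 and S1, hold the same seedlings: same-population deviations from the group means correlated at 0.243 to 0.282 and at 0.22 to 0.352 over 29082 transcripts, and at 0.0486 to 0.151 between C1 and S1 and 0.111 to 0.142 between C0 and S0. Replicates are bulks of different populations, so p-values measure the spread between these. On simulated counts the tests called, of 100 transcripts changed 4-fold, 84 between C1 and S1, 90 from C0 to C1, 83 from S0 to S1, 80 between C0 and S0, 45 (difference of changes) and 74 (populations). Of 100 changed 2-fold they called 19, 46, 39, 24, 2 and 46 in the same order. Unchanged transcripts called by mistake numbered 3, 5, 4, 1, 8 and 18 in that order, from a single simulated set each. Except between C0 and S0, these were a larger share of the calls than the threshold of 0.01 aims at. The changed transcripts had more reads than the filter requires, and no other difference between populations was simulated. Recovery in the data can therefore be lower. Alternatives were another normalization (DESeq2 1.42.0 size factors), the DESeq2 and edgeR exact tests, other filters, windows of 25 and 100 kb, population as a block, a joint fit and each library left out. Columns of the authors' own comparisons in those supplementary tables were not used.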

Additional observations from a re-analysis of the deposited data

Results flagged for a closer look

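In 3 of the 5 transcripts watered and stressed seedlings moved in opposite directions in every population. Eucgr.F00644 differed by -3.88 on the log2 scale from C0 to C1 and was higher in S1 than in S0, and Eucgr.F03917 and CUFF.12241 differed by 2.93 and 3.40 from C0 to C1 and were lower in S1 than in S0. This difference was not tested, since the transcripts were chosen on part of these libraries. No share over all transcripts was counted for opposite moves, and the choice favours them, so nothing is read from the count. Among the named neighbours the change from S0 to S1 differed from that from C0 to C1 by edgeR's quasi-likelihood test for Eucgr.I02395 (log2 difference 7.58, adjusted p = 9.16e-10), Eucgr.B00868 (-4.66, adjusted p = 1.12e-07) and the 3 pieces of Eucgr.F00650 (-3.91, -4.83 and -4.29, adjusted p at most 0.000433). The difference was also called for the transcript at scaffold 9, position 34548122 (-3.10, adjusted p = 0.00464), Eucgr.K02753 (-1.09, adjusted p = 0.00449), Eucgr.K02747 (1.0, adjusted p = 0.00353) and the transcript at scaffold 6, position 47530341 (1.28, adjusted p = 0.00578). Each of these last 4 calls was lost on leaving out some single library, from 5 of the 12 libraries for the first 3 to 10 of the 12 for the last. No group has 4 or more libraries, so single libraries were not tested as outliers.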

How the results depend on the processing

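Low depth limits the transcripts that are near 0: folds against groups with 0 or 1 read are bounds or wide intervals. Of 592 alternative values for the named neighbours, 528 kept their direction and side of the threshold, 62 lost the call and 2 changed sign, both with no call in the main fit: the neighbour of CUFF.9597 at 5.1 kb, which ranged from -0.26 to 0.02 with 1 library left out (positive without Katherine C1), and that of CUFF.12241 at 16.1 kb, from -0.11 (without Mt Isa C1) to 1.11. Eucgr.F00644 ranged from -0.16 (without Petford S0) to 0.34 between C0 and S0. No member was called between C0 and S0 or among populations under any alternative run. The population fits include libraries that served to choose the members, so no conclusion is drawn from the latter. Leaving out 1 library gave 13 to 16 called neighbours for C1 against S1, 2 to 4 for C0 against C1, 9 to 12 for S0 against S1 and 5 to 9 for the difference of changes. With neighbours within 25 kb the counts were 7 of 24, 1 of 23, 8 of 26 and 3 of 26, and within 100 kb 29 of 93, 6 of 88, 27 of 96 and 16 of 101, which follow the number of neighbours in the window. For C0 against C1, 5 of 56 were called with no filter on low counts; the cause was not tested. With population as a replicate block, 7 of 49 neighbours were called for C0 against C1, 17 of 51 for C1 against S1, 20 of 53 for S0 against S1 and 11 of 56 for the difference of changes, and over all transcripts 4264 in place of 2263 for C0 against C1, 11872 in place of 7722 for S0 against S1 and 207 in place of 69 for C0 against S0. For C0 against S0 over all transcripts, DESeq2 called 138, edgeR's exact test 173 and the joint fit of 12 libraries 104, and 28 to 30 were called without a C0 library and 148 without Mt Isa S0. For C0 against C1, 1124 to 1318 were called without a C0 library and 1474 without Katherine C1. Among populations DESeq2 called 332 in place of 510, and the filter at 1 CPM in 3 libraries left 338. Of 91 alternative ratios for the 5 transcripts 16 moved by more than the spread between populations and none changed direction. Without Petford S1, the deepest library, the bounds for CUFF.12241 were -6.72 for C1 to S1 and -3.09 for S0 to S1, and without Katherine S1 they were -7.01 and -3.38.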
